A study of Mus musculus with 20 samples.

Results

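Breast tumors with the highest milk gene scores were compared with those with the lowest, within 1 series of 20 tumors. Each tumor was given a milk score, the mean z-score of log2(CPM + 1) over Csn1s1, Csn2, Csn3 and Wap, where CPM is a gene's count divided by the tumor's total and scaled to the same total in each tumor. The 6 tumors with the highest scores (milk-high) and the 6 with the lowest (milk-low) were then compared across all other genes, and the 8 tumors between them (middle) were kept apart. The groups thus hold 12 of the 20 tumors and were chosen from measured values, not from a treatment.

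All 20 tumors came from female [BALB/c-neuT x FVB/J] F1 mice, 1 tumor per mouse. Every mouse inherited the neuT transgene, an activated rat Her2/neu oncogene, from its BALB/c father. In BALB/c-neuT mice the transgene is driven by the mouse mammary tumor virus promoter, which is active in breast epithelium and responds to hormones. The tumors arose spontaneously in adult mice that each carried several, the labels name no treatment, and normal breast was not analysed here. Each tumor is named Lo or Hi, labels that the sources used here do not explain. The milk-high tumors were 3 Lo and 3 Hi tumors, and the milk-low tumors were 2 Lo and 4 Hi tumors.

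Milk proteins are made by the secretory alveolar cells of the breast. In late pregnancy, prolactin acts through its receptor and JAK2 to activate STAT5, which, with factors such as ELF5, switches on the casein genes. The caseins carry calcium and phosphate, WAP is a whey protein, and milk fat leaves the cell in droplets coated by a membrane that holds butyrophilin (BTN1A1) and perilipin 2. After weaning the gland involutes and loses its secretory cells, in part through STAT3.

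The count total of a tumor lay between 38765682 and 65465755, and the difference in mean total between milk-high and milk-low tumors was smaller than their spread (exact permutation test, two-sided, p = 0.608). The locus of Yam1 and AY036118 on Chr17, which overlaps ribosomal RNA, took 14.95 ± 7.12% of the counts of milk-high tumors and 15.3 ± 5.01% of those of milk-low tumors (SD, n = 6 each, exact permutation p = 0.916). It was left out of all totals. Epcam, the epithelial adhesion marker, stood between 1088 and 1605 CPM and Krt8, a luminal keratin, between 692 and 1213 CPM in these 12 tumors.

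The 3 caseins of the score lie in a cluster on Chr5 of mm10, Csn1s1 at 87666224 to 87682573, Csn2 at 87692624 to 87699421 and Csn3 at 87925579 to 87932665. Csn1s2a (87774567 to 87788797) and Csn1s2b (87808082 to 87824426), which were not in the score, lie between Csn2 and Csn3. Wap is on Chr11 at 6635482 to 6638637. The 250 bases before the transcript start are shown for Csn2, Csn1s1 and Wap, the score genes that followed each other, and for Glycam1 and Csn1s2a, the other milk protein genes with the largest log2 fold changes, because STAT5 acts through such promoters. Sequences are from RefSeq on GRCm38.p6, 5′ to 3′ on the strand of the gene. Capitals mark TTC and GAA with any 3 bases between them, the palindromic core that STAT factors bind, which was the 1 motif searched and reads the same on both strands.
Csn2: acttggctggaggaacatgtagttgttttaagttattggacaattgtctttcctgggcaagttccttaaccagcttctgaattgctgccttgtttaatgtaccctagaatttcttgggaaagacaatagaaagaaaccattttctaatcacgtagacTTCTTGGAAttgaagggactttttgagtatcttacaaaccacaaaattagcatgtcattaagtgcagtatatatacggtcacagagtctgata
Csn1s1: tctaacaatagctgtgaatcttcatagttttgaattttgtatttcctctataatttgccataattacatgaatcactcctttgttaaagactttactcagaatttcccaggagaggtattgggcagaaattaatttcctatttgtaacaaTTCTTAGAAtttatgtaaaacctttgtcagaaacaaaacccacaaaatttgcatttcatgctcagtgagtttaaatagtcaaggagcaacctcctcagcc
Glycam1: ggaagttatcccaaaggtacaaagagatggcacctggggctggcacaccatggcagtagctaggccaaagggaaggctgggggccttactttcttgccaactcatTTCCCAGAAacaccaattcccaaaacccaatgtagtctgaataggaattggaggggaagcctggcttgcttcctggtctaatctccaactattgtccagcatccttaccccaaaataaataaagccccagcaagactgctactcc
Csn1s2a: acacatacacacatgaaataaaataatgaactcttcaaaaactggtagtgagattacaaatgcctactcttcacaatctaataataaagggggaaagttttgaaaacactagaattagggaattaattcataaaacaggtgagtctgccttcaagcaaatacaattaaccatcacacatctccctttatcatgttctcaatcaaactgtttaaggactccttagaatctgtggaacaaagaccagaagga
Wap: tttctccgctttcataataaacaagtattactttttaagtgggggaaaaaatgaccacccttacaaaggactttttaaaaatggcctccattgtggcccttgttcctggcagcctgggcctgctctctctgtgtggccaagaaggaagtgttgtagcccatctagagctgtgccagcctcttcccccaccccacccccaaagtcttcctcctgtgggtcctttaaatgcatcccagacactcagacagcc
These windows are chr5:87699426-87699675 (minus strand) for Csn2, chr5:87665958-87666207 (plus) for Csn1s1, chr15:103565082-103565331 (minus) for Glycam1, chr5:87774200-87774449 (plus) for Csn1s2a and chr11:6638650-6638899 (minus) for Wap. The motif began 93 bases before the start of Csn2, 100 before that of Csn1s1 and 145 before that of Glycam1. It was not in the windows of Csn1s2a or Wap. Of 15 score and other milk protein genes with a promoter in the table (18 in all), 3 held the motif in this window, against 7.02% of all 32841 promoters. Csn1s1 and Csn2 chose the tumors, and Glycam1 was the only holder among the milk protein genes outside the score. Among the genes whose levels did not overlap between the groups, 2 of 62 promoters of higher genes held it (3.23%) and 1 of 12 of lower genes, against 7.39% of genes tested.

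The score itself is a description, since its genes chose the tumors. Csn2, which encodes beta-casein, had between 462 and 4630 CPM in milk-high tumors with a median of 1130 CPM. In the middle tumors it had between 224 and 900.2 CPM, and in milk-low tumors between 61.1 and 287 CPM with a median of 153 CPM. Across all 20 tumors the highest level was 75.8 times the lowest. Csn1s1, the alpha-S1-casein gene, had between 378 and 2280 CPM in milk-high and between 69.8 and 254 CPM in milk-low tumors. Wap was the lowest of the 4, with between 1.82 and 28.5 CPM in milk-high and between 0.315 and 1.01 CPM in milk-low tumors, where it rested on 14 to 46 reads per tumor. For these 3 genes the milk-high and milk-low tumors did not overlap.

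Csn3, the kappa-casein gene, was at a high level in every tumor. It had between 8211 and 11831 CPM in milk-high, between 6935 and 10889 CPM in the middle, and between 7359 and 9597 CPM in milk-low tumors. These ranges overlap, and the highest Csn3 level was 1.71 times the lowest over 20 tumors. Together the score genes took 0.987% to 1.51% of the counts outside the Yam1 locus in milk-high tumors. In milk-low tumors they took 0.751% to 0.999%, so that the summed shares of the groups overlap. On the log2 scale, Csn1s1, Csn2 and Wap followed each other over 20 tumors, with Pearson's r between 0.905 for Csn1s1 with Wap and 0.986 for Csn1s1 with Csn2. Csn3 did not follow them, with r between 0.0370 with Wap and 0.245 with Csn1s1. All of these values share libraries and totals, and they are given as a description. Per base of listed length, Csn2 exceeded Csn3 in tumor 21 only, at 4134 against 1978 RPKM (CPM per kilobase of listed length). In tumor 22, the next in score, Csn2 had 1816 RPKM and Csn3 had 2687 RPKM. The length listed for Csn3 is 4152 bases, against 1120 for Csn2, and a shorter Csn3 length would raise its RPKM in proportion.

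The highest scores were those of tumor 21 (1.61), tumor 22 (1.39), tumor 3 (0.991), tumor 13 (0.844), tumor 19 (0.451) and tumor 16 (0.400). The lowest were those of tumor 20 (-0.417), tumor 2 (-0.471), tumor 9 (-0.493), tumor 6 (-1.21), tumor 12 (-1.29) and tumor 18 (-1.45). Just outside the groups were tumor 14 at 0.163 and tumor 1 at -0.302. Tumor 19 was milk-high through Csn3, which was higher there than in any other tumor, while its Csn2 level of 462 CPM was below those of 3 middle tumors, the highest of them tumor 7 with 900.2 CPM. When the score was computed without Csn3, tumor 7 replaced tumor 19 among the 6 highest and tumor 4 replaced tumor 9 among the 6 lowest. Without Wap, tumor 14 replaced tumor 16. Leaving out Csn1s1 or Csn2 left the groups as they were.

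**Figure D1:**
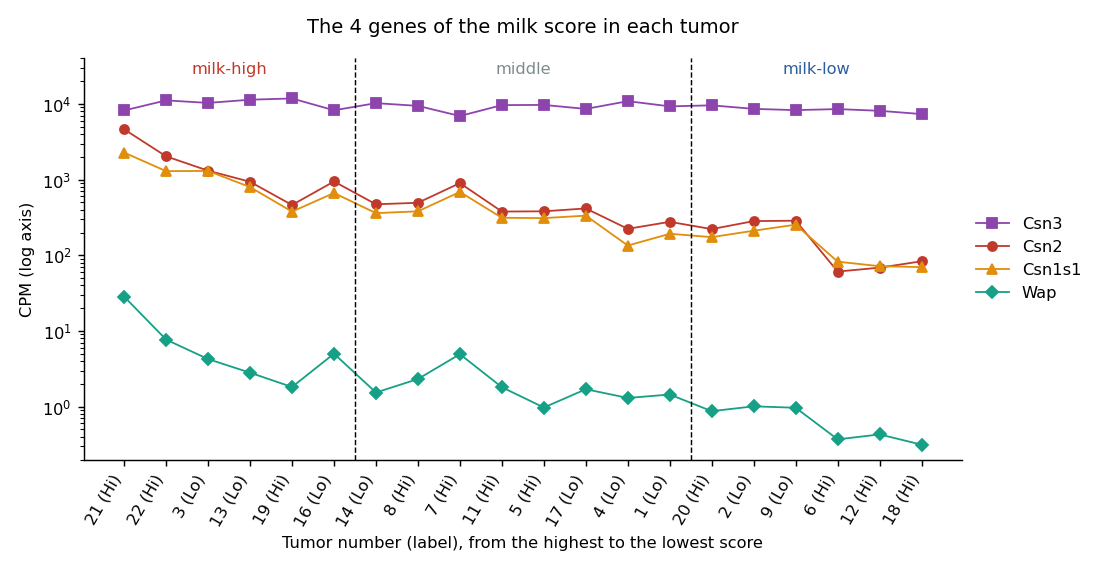
CPM (log axis) of the 4 score genes in each of 20 tumors, ordered from the highest to the lowest score, with dashed lines between milk-high, middle and milk-low tumors. Csn2, Csn1s1 and Wap decline together from left to right, while Csn3 stays between 6935 and 11831 CPM in all 20 tumors.

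Of 18855 other genes tested, 3 were higher in milk-high tumors at an adjusted p under 0.05 (0.0159% of genes tested) and none was lower (0.0%) by edgeR's quasi-likelihood test with Benjamini-Hochberg adjustment. At an unadjusted p under 0.05, 1052 genes were higher and 564 lower. The median log2 fold change over all genes tested was -0.01, so that changes are read against a shift near 0. It was above 0 for 46.7% of genes tested, against which counts of signs in lists are read. DESeq2 called 203 genes higher (1.01% of 20184) and 23 lower (0.114%), which included the same 3 genes. The 3 genes were Btn1a1, Lamb3 and Lmod1. Below, a gene is called where it passed edgeR's test between the groups, and calls of DESeq2 are given under its name. Counts of list members by DESeq2 are read against its 1.01% of genes higher and 0.114% lower.

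Btn1a1 (ENSMUSG00000000706, Chr13, 23456992 to 23465901) encodes butyrophilin, the main membrane protein of the milk fat globule. It had 69.0 CPM in the lowest, 94.3 in the median and 198.7 in the highest milk-high tumor, against 9.77, 19.02 and 36.2 CPM in milk-low tumors. Every milk-high tumor was thus above every milk-low tumor, and the middle tumors lay between 25.8 and 92.6 CPM. The means were 113.6 ± 50.9 and 20.3 ± 10.6 CPM (SD, n = 6 each), and the log2 fold change was 2.48 ± 0.351 (SE), with an adjusted p = 0.0404 from edgeR. Tumors 6, 12 and 18, the lowest in score, were also the lowest in Btn1a1, at 10.8, 13.5 and 9.77 CPM.

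Lamb3 (ENSMUSG00000026639, Chr1, 193207699 to 193343878) encodes the beta-3 chain of laminin-332, a basement membrane protein that epithelial cells secrete. It had between 28.5 and 72.8 CPM in milk-high tumors with a median of 45.1 CPM, and between 12.3 and 24.9 CPM in milk-low tumors with a median of 16.2 CPM. The groups did not overlap, and the log2 fold change was 1.47 ± 0.214 (SE), with an adjusted p = 0.0404 from edgeR. The span listed for Lamb3 holds G0s2 (mean of 24.9 CPM and a log2 fold change of 0.89) and Hsd11b1 (3.90 CPM), and how reads in shared stretches were assigned is not given in the sources used here.

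Lmod1 (ENSMUSG00000048096, Chr1, 135324807 to 135368065) encodes leiomodin 1, an actin-nucleating protein best known from smooth muscle. It had between 29.7 and 37.8 CPM in milk-high and between 20.2 and 25.2 CPM in milk-low tumors. Its log2 fold change was smaller, 0.57 ± 0.0839 (SE) with an adjusted p = 0.0404 from edgeR, and the spread within each group was narrow, at 3.07 and 1.87 CPM (SD, n = 6 each). Acta2 and Tagln, other smooth muscle and myoepithelial genes, had log2 fold changes of -0.02 and 0.15 and overlapped between the groups. Oxtr, the oxytocin receptor gene of the contractile myoepithelial cells, had 1.08 ± 0.252 (SE), with an adjusted p = 0.161 from edgeR and 0.00437 from DESeq2.

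These 3 calls depended on the tumors included. No gene was called when any 1 of tumors 22, 3, 13, 19, 20, 2, 6, 12 or 18 was left out, and the adjusted p of Btn1a1 then ranged up to 0.150. With tumor 16 left out, 24 genes were called higher. With Lo or Hi as a term no gene was called. Within the 5 Lo tumors and the 7 Hi tumors of the groups, the log2 fold change of Btn1a1 was 1.48 and 3.25, that of Lamb3 was 1.07 and 1.77, and that of Lmod1 was 0.50 and 0.62. The milk scores of the Hi tumors were 0.451 to 1.61 in milk-high and -1.45 to -0.417 in milk-low. Those of the Lo tumors were 0.400 to 0.991 and -0.493 to -0.471, so that the Lo contrast spanned a narrower range of score. The difference between Lo and Hi in the milk contrast passed the adjusted threshold for 0 genes by edgeR's interaction term, with 579 genes at an unadjusted p under 0.05.

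The 10 genes with the smallest p among those higher in milk-high tumors held, beside the 3 called, Eva1b, Vdr, Ogfrl1, Csn1s2a, Ltf, Cnp and Lao1, whose adjusted p lay between 0.0526 and 0.0679 by edgeR. DESeq2 called all 10 higher (1.01% of all genes were). Vdr encodes the vitamin D receptor, which takes part in calcium handling. Vdr had between 89.7 and 183.8 CPM in milk-high and between 32.4 and 68.2 CPM in milk-low tumors, a log2 fold change of 1.20 ± 0.189 (SE). Ogfrl1 also had a log2 fold change of 1.20, and Cnp and Eva1b had 0.63 and 0.65. In all 10 genes the groups did not overlap (0.419% of all genes did so in this direction). The 10 were chosen by p in this same contrast, so that neither count is separate support.

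The 10 genes with the smallest p in the other direction had adjusted p between 0.129 and 0.227 by edgeR, which called none. They were Hoxa3, Tspan32os, Cep57l1, Myo7a, Limch1, Dpf1, Cmah, Cytl1, Trpm3 and Fam160b1. DESeq2 called all but Cytl1 and Fam160b1 lower (0.114% of all genes were), on the same tumors that chose the 10. In edgeR's fit with the score as a covariate, only Cep57l1 (adjusted p = 0.0277) and Cmah (0.0481) of these passed 0.05. Over the middle tumors, log2 CPM of Hoxa3, Limch1, Cmah and Trpm3 rose with the score. Hoxa3, a homeobox gene of anterior-posterior patterning, had 19.6 CPM in tumor 12, 15.4 in tumor 20, 9.67 in tumor 2, 6.13 in tumor 9, 2.20 in tumor 6 and 0.676 in tumor 18, all milk-low. It stayed between 0.700 and 1.98 CPM in the milk-high tumors, so that tumor 18 overlapped with them. Cep57l1, a centrosome gene, had between 6.61 and 10.8 CPM in milk-high and between 11.2 and 13.1 CPM in milk-low tumors without overlap. Myo7a, an unconventional myosin gene, had log2 fold change -0.51 and overlapped.

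**Figure D2:**
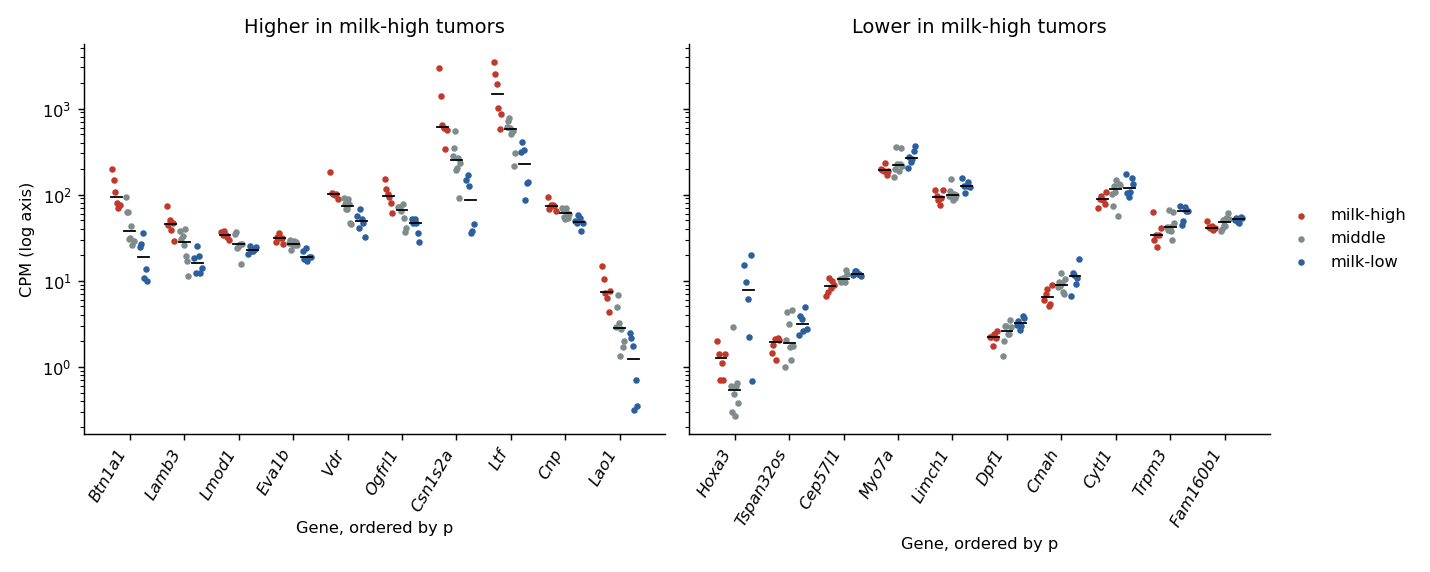
CPM (log axis) of the 10 genes with the smallest p in each direction, with 1 point per tumor, colored by group, and a line at each group's median. All 10 genes at the left separate the 6 milk-high from the 6 milk-low tumors, whereas most of those at the right overlap. The genes were chosen by p in these same tumors.

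The groups did not overlap for 79 genes that were higher in milk-high tumors (0.419% of genes tested) and for 19 that were lower (0.101%). The middle tumors, which took no part in choosing these genes, allow a separate look. Over these 8 tumors the slope of log2 CPM on the score had the same sign as the contrast for 63 of the 79 higher genes and 14 of the 19 lower genes, compared with 57.3% of all genes tested. Leaving out tumor 14, the highest of the middle tumors, gave 59 of 79 and 7 of 19, compared with 52.2% of all genes tested. The lower genes were then below that share, at 36.8%. All 3 called genes had a positive slope among the middle tumors (49.9% of all genes tested had one), also with each middle tumor left out. No test was made on these slopes.

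The other milk proteins, a list of 14 genes that were not in the score, had a median log2 fold change of 0.95. None was called by edgeR and 8 were higher by DESeq2 (1.01% of all genes were). Of the 14, 10 were higher at an unadjusted p under 0.05 (5.58% of all genes were). The groups did not overlap for 5 of 14 (0.419% of all genes did so in this direction). Csn1s2a, another calcium-binding casein gene, had between 336.5 and 2957 CPM in milk-high and between 35.9 and 169.6 CPM in milk-low tumors, and its log2 fold change of 3.53 ± 0.581 (SE) had an adjusted p = 0.0526 from edgeR. Ltf encodes lactoferrin, an iron-binding defense protein of milk. It had 576 CPM in the lowest, 1471 in the median and 3499 in the highest milk-high tumor against 85.9, 227 and 409 CPM in milk-low tumors, and its log2 fold change was 2.88 ± 0.474 (SE), with an adjusted p = 0.0526 from edgeR.

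Lalba, which encodes alpha-lactalbumin, the regulatory subunit of lactose synthase, had between 176 and 314 CPM in milk-high and between 34.5 and 149 CPM in milk-low tumors. Its highest level was in tumor 19, where Csn2 and Glycam1 were the lowest of the milk-high tumors. Lao1, an L-amino acid oxidase of mouse milk, had between 4.34 and 14.7 CPM against 0.314 to 2.49 CPM, and Wfdc18, a small WAP-domain protein gene, between 1250 and 2260 CPM against 729 to 1162 CPM. These 3 genes did not overlap, with log2 fold changes of 1.51, 2.70 and 0.76. Glycam1, a mucin-like milk protein gene, had the largest log2 fold change of the list, 3.71 ± 0.757 (SE), with an adjusted p = 0.117 from edgeR. It reached 179.7 CPM in tumor 22 but only 5.72 CPM in tumor 19, below the 15.4 CPM of tumor 9. Csn1s2b had at most 13.2 CPM in these 12 tumors and a log2 fold change of 2.29, and Muc1, a membrane mucin gene, had 0.77. Both overlapped between the groups.

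The remaining 6 members of the list had larger adjusted p than those above, among them Trf, the most abundant. Trf, the transferrin gene, had between 27305 and 51940 CPM in milk-high and between 27688 and 45720 CPM in milk-low tumors, a log2 fold change of 0.06. Spp1 (osteopontin) had 0.48 and Mfge8, a milk fat globule protein gene, had 0.41. Pigr, which carries antibodies into milk, had 0.73 and Cel, a bile-salt-stimulated lipase gene, had 1.14 at under 3 CPM. Lpo, the lactoperoxidase gene, overlapped fully. The adjusted p of these 6 genes was 0.257 or more by edgeR.

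**Figure D3:**
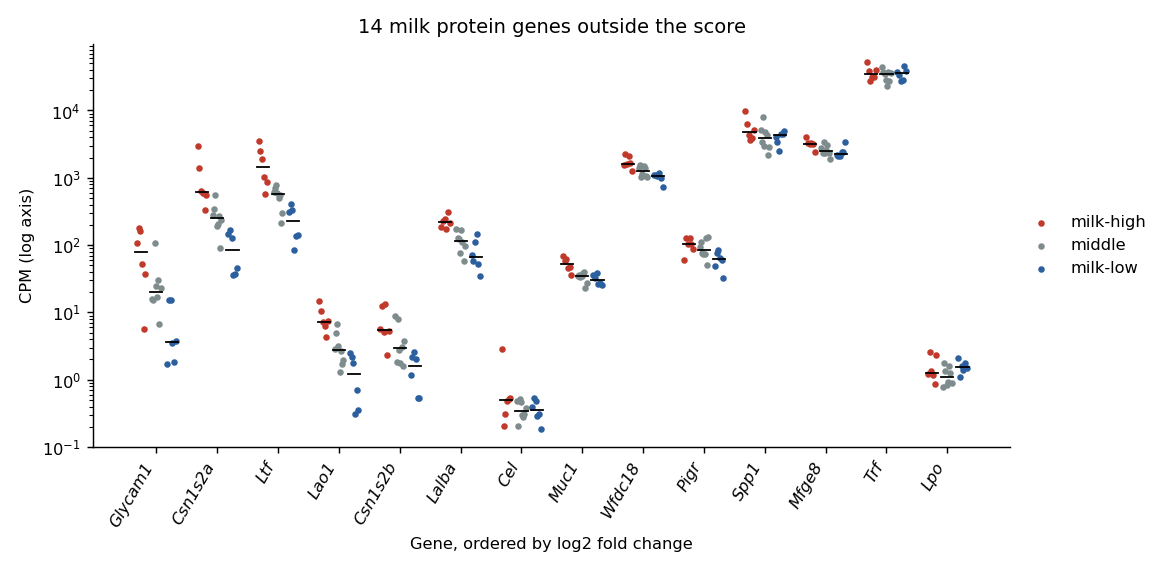
CPM (log axis) of the 14 milk protein genes outside the score, with 1 point per tumor, colored by group, and a line at each group's median. The medians fall from milk-high through middle to milk-low for Csn1s2a, Ltf, Lao1 and Lalba, whereas Trf and Lpo show no such order.

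With the score as a covariate over all 20 tumors, 116 of 20123 genes rose with the score (0.576%) and 4 fell (0.0199%) at an adjusted p under 0.05 by edgeR's quasi-likelihood test. All 3 genes called between the groups were among them, and 84 of the 120 were also called by DESeq2 between the groups. Of the 14 other milk proteins 8 rose, namely Ltf, Csn1s2a, Lao1, Muc1, Glycam1, Wfdc18, Csn1s2b and Lalba. The log2 change per unit of score was 1.60 ± 0.0966 for Ltf (SE, adjusted p = 8.94e-10), 1.93 ± 0.123 for Csn1s2a (adjusted p = 1.39e-09) and 1.41 ± 0.0962 for Btn1a1 (adjusted p = 3.76e-09, all from edgeR). This fit shares the 12 tumors of the groups, so that it is not independent of them.

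Among 28 genes of the milk fat globule and milk lipid, 1 was called higher by edgeR (Btn1a1, against 0.0159% of all genes) and none lower, and 2 did not overlap (0.419% of all genes did so in this direction). DESeq2 called Btn1a1 and Plin2 higher. Of the 28, 7 were higher at an unadjusted p under 0.05 (5.58% of all genes were) and 0 lower. The median log2 fold change was 0.06. The other gene without overlap was Plin2, which encodes the coat protein of lipid droplets, with between 144 and 249.5 CPM against 108 to 142 CPM (log2 fold change 0.65). Genes of the lipogenic pathway in the list were on both sides of 0, with Thrsp, a lipogenic regulator of milk fat, at 1.08. Among 17 tested genes of lactose, ion and nutrient transport, none was called by edgeR and the median was 0.04. An unadjusted p under 0.05 was reached by 3 of 17, all higher. Slc28a3, a nucleoside transporter gene, did not overlap (log2 fold change 0.64), and it was the 1 gene of this list called by DESeq2 and in the fit on the score. B4galt1, which encodes the catalytic subunit of lactose synthase, had 0.40, and the 2 most abundant members, Hk1 and Slc12a2, had -0.09 and -0.01.

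Of 21 tested genes of the prolactin and STAT5 axis, which acts upstream of the milk genes, none was called by edgeR in either direction. DESeq2 called Elf5 higher. Of the 21, 5 were higher at an unadjusted p under 0.05 (5.58% of all genes were) and 0 lower. The median log2 fold change was 0.13. The prolactin receptor gene Prlr had between 75.6 and 131.6 CPM in milk-high and between 88.5 and 146.6 CPM in milk-low tumors, a log2 fold change of -0.08. Stat5a had 0.49 (between 55.4 and 77.0 CPM against 33.7 to 56.4 CPM), and Elf5, the alveolar transcription factor, had 0.38 (between 143.0 and 218 CPM against 117 to 142.1 CPM). The groups count as overlapping for Elf5, because overlap was judged with TMM factors of the 12 tumors alone. Socs2, a STAT5 target that limits cytokine signaling, had 0.14, and Ccnd1 had -0.18.

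Luminal markers were expressed in all 12 tumors. None of the 12 luminal epithelium genes was called by edgeR and 1, Elf3, was higher by DESeq2. An unadjusted p under 0.05 was reached by 4 of 12, all higher (5.58% of all genes were). All 12 had positive log2 fold changes (46.7% of all genes did), and the median was 0.16. Elf3, an epithelial ETS factor, did not overlap between the groups (between 17.6 and 25.8 CPM against 11.6 to 16.98 CPM). Of 10 luminal and alveolar progenitor genes none was called by edgeR and the median was 0.24. DESeq2 called 3 of them higher (Lbp, Cd14 and Elf5), against 1.01% of all genes. The fit on the score had 2 that rose (Lbp and Cd14), against 0.576% of all genes. Of the 10, 5 were higher at an unadjusted p under 0.05 (5.58% of all genes were). Lbp, a lipopolysaccharide-binding protein gene of this list, did not overlap, at 348 to 519.5 CPM against 228 to 333 CPM, and Cd14 had a log2 fold change of 0.91, Kit 0.24 and Ehf 0.24. Hormone-sensing luminal genes (10 tested) had a median of -0.12, and Pgr, the progesterone receptor gene, was at 3.07 CPM or less in all 12 tumors. The 12 basal and myoepithelial genes had a median of -0.19, with none called by edgeR and 1, Oxtr, higher by DESeq2. Krt5 and Krt14, the basal keratins, reached 33.2 and 26.4 CPM in tumor 6, which is milk-low, and 8.44 and 7.84 CPM in tumor 21, which is milk-high.

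Involution genes are those that mark the regressing gland after weaning. Of 18 such genes none was called between the groups by edgeR. DESeq2 called 4 higher (Tgfb3, Igfbp5, Clu and Lrg1), against 1.01% of all genes. As many as 7 of 18 were higher at an unadjusted p under 0.05 (5.58% of all genes were). Of the 18, 15 had positive log2 fold changes (46.7% of all genes did), and the median was 0.29. Clu (clusterin) had a log2 fold change of 0.82, Tgfb3 0.59, Igfbp5 0.76 and Lcn2 0.11. With the score as a covariate, 3 of the 18 rose (Clu, Lrg1 and Tgfb3), against 0.576% of all genes. Saa1, an acute phase gene, had 2.59 through low levels, with at most 8.19 CPM. Of 20 genes of the secretory pathway and unfolded protein response none was called by edgeR and the median was 0.04. DESeq2 called Xbp1 and Sec61b higher, and Xbp1 rose in the fit on the score. Xbp1, a transcription factor of secretory cells, had 0.47, while the chaperone genes Hspa5 and Hsp90b1 had 0.03 and -0.06.

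All 20 proliferation genes had log2 fold changes below 0 (46.7% of all genes were above 0), with a median of -0.23 and a range from -0.37 to -0.04. None was called by edgeR or DESeq2, and 7 were lower at an unadjusted p under 0.05 (2.99% of all genes were). Mki67, a marker of cycling cells, had 163, 270 and 346 CPM in the lowest, median and highest milk-high tumor against 286, 330.2 and 388 CPM in milk-low tumors, a log2 fold change of -0.35 ± 0.151 (SE). Top2a had -0.30. The ranges of both genes overlapped. These genes are expressed together in cycling cells, so that their number is not a number of independent observations.

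**Figure D4:**
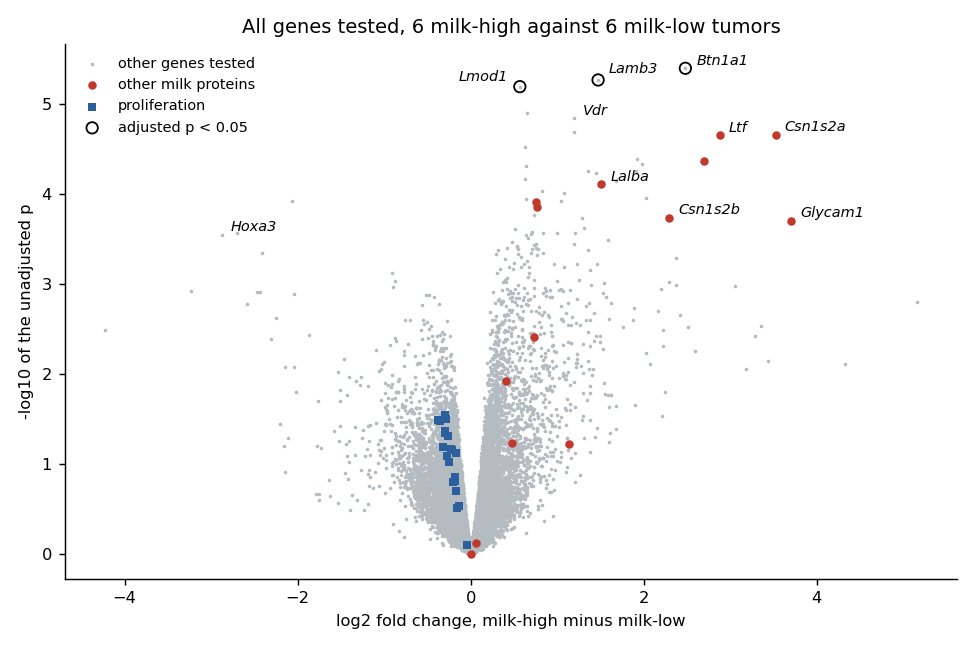
Log2 fold change of milk-high minus milk-low tumors (x) against -log10 of the unadjusted p (y) for the 18855 genes tested. The 3 circled genes passed the adjusted threshold, the other milk proteins (red) lie at the right, and the proliferation genes (blue) all lie left of 0.

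Erbb2, the mouse gene of the receptor family to which the transgene belongs, had between 234 and 255 CPM in milk-high and between 206 and 289 CPM in milk-low tumors (log2 fold change 0.04 ± 0.0851 (SE), adjusted p = 0.933 from edgeR). Reads of the rat transgene were not analysed separately here. Of 12 tested ErbB receptor and ligand genes none was called by edgeR or DESeq2 and the median was -0.09, with Erbb3 at -0.07.

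In a piece of tumor, fewer cells of a type and less RNA per cell cannot be told apart, and the lists of other cell types were therefore set beside the milk genes. Leukocyte markers had a median log2 fold change of 0.33, with none of 10 called by edgeR and 8 of 10 higher at an unadjusted p under 0.05 (5.58% of all genes were). DESeq2 called 4 of them higher (Coro1a, Cd48, Cd52 and Tyrobp), against 1.01% of all genes, and none rose in the fit on the score. Coro1a, a leukocyte actin regulator gene, had 0.42 and Cd48 0.55, while Lcp1, the most abundant, had -0.05 and Laptm5 0.29. Their summed level was 487 to 713 CPM in milk-high and 470 to 656 CPM in milk-low tumors, which overlap. Of 10 macrophage markers none was called by edgeR and none rose in the fit on the score. DESeq2 called 3 higher (C1qa, C1qb and C1qc), against 1.01% of all genes. An unadjusted p under 0.05 was reached by 5 of these 10 markers, all higher (5.58% of all genes were). Their median was 0.17, with a summed level of 442 to 510 CPM against 327 to 448 CPM. C1qa, a complement gene of macrophages, did not overlap (between 115 and 139 CPM against 80.9 to 114 CPM). C1qb and C1qc, beside it on Chr4, had 0.32 and 0.35. Markers of T cells (7 of 10 tested, median 0.66) and B and plasma cells (7 of 10 tested, median 0.20) were low, at summed levels of at most 10.5 and 18.6 CPM in any of the 12 tumors. In these lists Cd4 had 0.45, Lck 0.06, Ighm 0.41 and Igha 1.11.

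Fibroblast markers (10 genes, median 0.11, Col3a1 0.07 and Col1a2 0.06) and endothelial markers (10 genes, median 0.22, Pecam1 0.16 and Eng -0.11) held no gene called by either tool. Adipocyte markers (9 tested, median -0.37) summed to 11.1 to 84.7 CPM in milk-high and 23.0 to 87.6 CPM in milk-low tumors, with Fabp4 at -0.26 and Cfd at -0.46. Erythrocyte markers had a median of -0.23, with Hbb-bs at -0.23 and Hbb-bt at -0.19. Nuclear-retained RNAs had a median of -0.32, with Malat1 at -0.35 and Xist at -0.35. None of these lists held a gene called by edgeR or DESeq2, and no marker of any list was at 0 in all 12 tumors.

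Skeletal muscle was the 1 list whose summed level differed by more than 2 times between the group means (ratio of milk-high to milk-low 0.367). The sum ranged from 7.42 to 94.0 CPM in milk-high and from 5.02 to 424 CPM in milk-low tumors with similar medians of 9.30 and 9.56 CPM. Acta1, the skeletal actin gene, had 114 CPM in tumor 18 and 20.6 CPM in tumor 6, both milk-low, and 22.8 CPM in tumor 16 and 15.6 CPM in tumor 3, both milk-high. The other 8 of these 12 tumors had at most 0.959 CPM. Ckm, Myh1, Myh4, Mylpf, Tnnt3, Tnni2 and Pvalb had log2 fold changes between -2.15 and -1.23 and overlapping groups, while Mb had 0.31. The part of muscle in the milk contrast was not tested.

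**Figure D5:**
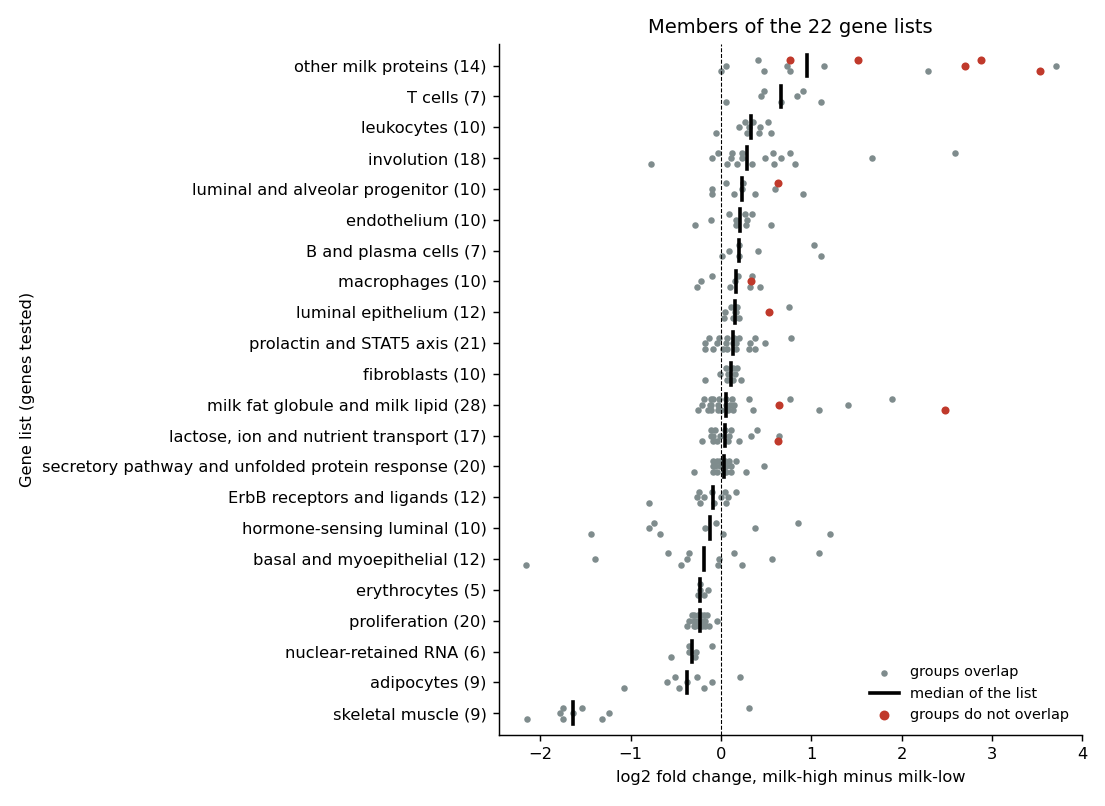
Log2 fold change (x) of each tested member of 22 gene lists (y, with the number tested), with a line at the median of each list. The other milk proteins have the highest median, 0.95, and 5 of 14 without overlap (red), and the proliferation genes all lie below 0.

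Genes of Chr4 had a higher median than those of any other chromosome. The median log2 fold change over 1171 genes of Chr4 was 0.14, against -0.07 to 0.03 for the other chromosomes. Chr4 held 14 of the 79 genes without overlap that were higher (17.7%) and 6.21% of genes tested. Eva1b, Lao1, Plin2, C1qa and Laptm5 are on Chr4. The Chr4 level of a tumor (median over its genes relative to the other autosomes, log2) was 0.37 in tumor 19 and between -0.04 and 0.16 in the other milk-high tumors, against -0.19 to 0.11 in milk-low tumors. Without tumor 19 the median over Chr4 was 0.08. Btn1a1, Lamb3, Lmod1, Csn1s2a, Ltf and the score genes are on other chromosomes. The part of Chr4 dosage in the result for genes on it was not tested.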

How the data were processed

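RNA from pieces of 20 frozen tumors was made into TruSeq libraries and sequenced in paired-end reads at the same time. Per the labels and the paper's methods, the authors aligned reads to mm10 with TopHat2 2.0.12 within MapRseq after trimming to 100 bases, and the submitters' processing notes name featureCounts 1.4.4. The deposited table gives raw, unscaled counts per gene for each tumor over 43346 genes. The strand setting and annotation release are not given in the sources used here, so that overlapping, antisense and near-identical genes are uncertain. Positions are those of the deposited table.

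Yam1 and AY036118 were left out of the totals. The score used CPM of these totals with 1 added, and z-scores over the 20 tumors. The 12 tumors were compared with edgeR 4.0.16 in R 4.3.3 (filterByExpr, TMM factors, quasi-likelihood test, Benjamini-Hochberg adjustment at 0.05), without the score genes and the Yam1 locus. DESeq2 1.42.0 was the alternative test. CPM of other genes is given with TMM factors over all 20 tumors, whereas overlap was judged on CPM with TMM factors of the 12 tumors. A log2 fold change is on the scale of the fitted counts with edgeR's default prior count, its SE is its size over the root of the moderated F, and log2 CPM used a prior count of 2. Groups do not overlap where every tumor of 1 group lies above every tumor of the other. RPKM was computed from the deposited counts and the listed coding length. Other values used Python 3.11.15 with numpy 2.4.6, pandas 2.3.3 and scipy 1.17.1. The fit was run on simulated counts with the same relative spread for every gene and groups not chosen from the counts. That checks the code and not the calls in these data. Total counts of 38765682 to 65465755 set the precision, and p-values measure the spread between tumors, each from its own mouse.

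Members, the 23 lists and tests were chosen with earlier results of these data known. All 294 entries of the lists were found, 3 of them under older symbols. Named are the score genes, every other milk protein, per direction the 15 called genes with the largest log2 fold change or, as under 5 were called, the 10 with the smallest p (mean log2 CPM of at least 1, no Gm, Rik, clone or receptor segment names), up to 4 called or else the 2 most abundant members of each list, Erbb2, and the members of a list that differed by more than 2 times. Elf5, Stat5a, Prlr, Xbp1, Cd14, Lbp, Elf3, Clu, Tgfb3, Saa1, Coro1a, Cd48, Krt5, Krt14, Plin2, Thrsp, Slc28a3, B4galt1, Pgr, C1qc, Oxtr, Lrg1, Sec61b, Cd52, Tyrobp, G0s2 and Hsd11b1 were named after their values were seen. Of 18855 genes tested, 11708 had a promoter in the RefSeq table used. Read counts per allele are not analysed here.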

Additional observations from a re-analysis of the deposited data

Results flagged for a closer look

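Within each group of 6 tumors, 204 sets of 6 values of named genes and totals were searched for a tumor far from the other 5, where the gap to the nearest divided by the range exceeded 0.625. There were 23 such sets. For normally distributed values chance gives about 1 in 20, or 10.2. Some of the genes entered the search through their values, among them the skeletal muscle genes, Krt5, Krt14 and Slc28a3. The 10.2 is thus no valid rate for the 23 sets. The search used CPM without a logarithm, and skewed values can give more by chance. Many of the genes are expressed together, so that the sets are not independent. No cause was tested.

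Among milk-high tumors, tumor 21, the highest in score, was far above the others in Vdr (183.8 CPM, next 104.8), Cel (2.86 CPM, next 0.532), Ly6a (41.5 CPM, next 22.1), Slc28a3 (114.4 CPM, next 86.6), Krt5 (8.44 CPM, next 2.29) and Krt14 (7.84 CPM, next 1.46). Tumor 22 stood apart in Epcam (1605 CPM, next 1309), and tumor 19 in Igfbp5 (11021 CPM, next 7496).

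Among milk-low tumors, tumor 18, the lowest in score, was low in Wfdc18 (729 CPM, next 1007) and Slc12a2 (364 CPM, next 479) and high in Mfge8 (3395 CPM, next 2396) and Eng (123.6 CPM, next 40.6). The same tumor was high in the skeletal muscle genes Acta1 (114.1 CPM), Ckm (47.4 CPM), Myh4 (97.8 CPM), Myh1 (28.1 CPM), Mylpf (33.5 CPM), Tnnt3 (42.8 CPM), Tnni2 (23.1 CPM) and Pvalb (24.4 CPM). Tumor 12 was low in Top2a (113.7 CPM, next 151). Tumor 6 was high in the basal keratin genes Krt5 (33.2 CPM, next 8.23) and Krt14 (26.4 CPM, next 0.396).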

How the results depend on the processing

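With 6 tumors a group chosen from the data, the number of genes called depended on the setting, while Btn1a1, Lamb3, Lmod1, Csn1s2a and Ltf were higher in milk-high tumors in every setting. Against 3 genes higher and 0 lower, DESeq2 gave 203 and 23, no filter on low counts 16 higher, the 5 highest against the 5 lowest tumors 12, the 4 against 4 gave 0, all 20 tumors in 3 groups 18, and the score as a covariate 116 higher and 4 lower. Groups chosen without Csn3 gave 13 higher, and those without Wap 27 higher and 1 lower. Lo or Hi as a term gave 0. The Lo tumors alone gave 2 higher and the Hi tumors alone 0, both chosen after seeing the data. Leaving out 1 tumor gave between 0 and 24 genes higher, with 24 without tumor 16, 4 without tumor 9, 3 without tumor 21 and 0 without any other. Upper quartile factors, the Yam1 locus kept in the totals, the score genes kept in the normalization, and groups chosen without Csn1s1 or Csn2 gave the same 3 genes.

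Members of the lists called numbered 1 of all lists and 0 of the other milk proteins. These numbers were 29 and 8 with DESeq2, 6 and 4 without the filter, 3 and 1 with 5 tumors a group, 8 and 6 with all 20 tumors in 3 groups, 17 and 8 with the covariate, 6 and 5 without Csn3 and 7 and 3 without Wap. All lists held 0 with 4 tumors a group, with Lo or Hi as a term and in the Hi tumors alone, and the other milk proteins held 1 in the Lo tumors alone. With 1 tumor left out they ranged from 0 to 7 and from 0 to 4.

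The numbers after Lo or Hi name tumors of different mice. Tumors 3 and 20 share the number 7 and tumors 13 and 18 the number 1. The deviations of these pairs from the group means had r of -0.37 and -0.01. Neither value was positive, but 2 pairs are too few to decide whether tumors that share a number are alike. Tumors 2 and 6, both milk-low, share the number 3, and their likeness was not tested. With the number as a replicate block, only the 2 pairs across the groups inform the contrast. So few tumors leave this fit little room to call a gene. The 0 genes and 0 list members called thus decide nothing.

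Of the 32 genes given with a test, 5 changed sign in some setting. Trf had -0.38 and Spp1 -0.16 with the replicate block, a fit that rests on 2 pairs of tumors. Lpo had -0.0078 with upper quartile factors, -0.042 with 5 tumors a group, -0.25 without Wap in the score, -0.48 with the block and -0.13 in the Hi tumors alone. Cel had -0.22 in the Lo tumors alone, and Erbb2 -0.038 with 4 tumors a group and -0.012 without Wap. With 1 tumor left out, Trf had a lowest value of -0.065 and a highest of 0.15, and Lpo -0.19 and 0.13. Of 68 genes given as values only, 32 changed sign in some setting, among them Acta1, Ckm, Myh1, Myh4, Mylpf, Tnnt3, Tnni2 and Pvalb, which were positive in the Lo tumors alone, without Wap in the score and without tumor 18. The difference in the share of the Yam1 locus ranged from -2.93 to 1.35 percentage points with 1 tumor left out, and no test of it passed 0.05. Among the 8 middle tumors, the 79 higher genes followed the score in 64 by Spearman's rho and in 59 to 69 with 1 tumor left out. The cause of these changes was not tested.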
